A study of Mus musculus with 2 samples.

Results

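The genes described here are the 10 auxiliary subunits of the AMPA-type glutamate receptor that the series was searched for by symbol, namely Cacng2, Cacng3, Cacng4, Cacng8, Cacng5, Cacng7, Cnih2, Cnih3, Shisa9 and Gsg1l. All 10 were found among 55536 annotated genes. The study holds 2 total RNA libraries from the hippocampus of female mice of the hybrid B6CASTF1/J, aged 10 days. They are biological replicates 1 and 2 of 1 group, and each was a pool of 3 differently numbered mice. The libraries were depleted of ribosomal RNA, stranded and spiked with ERCC control RNA, from 300 ng of input. The tissue label reads "layer of hippocampus" and names no layer. No treatment, genotype, age or sex differed, so the data give levels in the tissue and the difference between the libraries. Reads from the hybrid were assigned to the mm10 reference, and how alleles of the other parent strain fared there was not tested.

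AMPA receptors carry most fast excitatory transmission in the brain. The ion channel is a tetramer of the pore subunits encoded by Gria1, Gria2, Gria3 and Gria4, and auxiliary subunits bind around it. Transmembrane AMPA receptor regulatory proteins (TARPs) bring the receptor to the synapse and slow its closing. TARPs fall into type I (Cacng2, Cacng3, Cacng4 and Cacng8) and type II (Cacng5 and Cacng7), which act differently on the channel. The cornichons Cnih2 and Cnih3 help the receptor leave the endoplasmic reticulum and slow its kinetics at the surface. Shisa9 and Gsg1l belong to other families, and both are known to hold back recovery of the channel from desensitization.

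The classes can be seen in the coding ends of the TARP genes. The last 4 codons of a type I TARP encode the tail that binds PDZ domains of synaptic scaffold proteins such as that of Dlg4. The last 30 bases of each coding sequence, stop codon included, follow from the GENCODE M21 transcripts, on the coding strand, with those 4 codons in capitals.
Cacng2: acagccaaccgccggACCACGCCCGTAtga
Cacng3: ccggccaacagacgtACCACGCCTGTCtga
Cacng4: atgctgaaccggcggACGACTCCCGTGtga
Cacng8: acgctcaacaggaaaACCACGCCCGTGtag
Cacng5: tatgaccagatgtcaTCATCTCCCTGCtga
Cacng7: catctccacatctccACTTCGCCGTGCtga
In mm10 the capitals lie at chr15:77995152-77995163 for Cacng2, at chr11:107734783-107734794 for Cacng4 and at chr11:107877355-107877366 for Cacng5, all on the minus strand. On the plus strand of chromosome 7 they lie at chr7:122768832-122768843 for Cacng3, chr7:3415591-3415602 for Cacng8 and chr7:3366934-3366945 for Cacng7. Of the 12 bases, Cacng8 shared 11 with Cacng2, Cacng3 shared 10 and Cacng4 shared 9, and all 4 type I genes encode the same tail. Cacng5 and Cacng7 shared 5 and 6 of the bases, and 1 and 2 of the 4 encoded residues, with Cacng2. Over whole proteins, translated from the leading complete coding transcript of each gene, the 6 type I pairs were 59.0% to 75.9% identical at aligned residues. Cacng5 and Cacng7 were 71.6% identical, and the 8 pairs of a type I with a type II TARP were 30.9% to 36.8% identical. Gsg1l was 24.4% to 29.5% identical to the TARPs. Pairs of a TARP with a cornichon reached like values in the same alignments, such as 29.9% for Cacng4 with Cnih2 and 30.7% for Cacng7 with Cnih3. The range for Gsg1l therefore does not by itself show a shared family, and the lowest type I with type II values lay close to such pairs.

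The cornichons share a stretch that their relative Cnih1 lacks. Cnih1 is known as a carrier of other cargo through the secretory pathway. Alignment of the encoded proteins of 160 residues for Cnih2 and Cnih3 with the 144 of Cnih1 left 16 codons of Cnih2 unpaired, at residues 45 to 60. These 48 bases and the same positions of Cnih3 are in capitals here, with 12 flanking coding bases on each side.
Cnih2: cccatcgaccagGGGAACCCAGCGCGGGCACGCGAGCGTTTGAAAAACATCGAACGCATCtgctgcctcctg
Cnih3: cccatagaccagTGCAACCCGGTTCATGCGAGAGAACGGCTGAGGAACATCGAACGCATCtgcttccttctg
The stretch crosses an intron in both genes, at chr19:5094302-5094749 on the minus strand for Cnih2 and chr1:181406518-181409658 on the plus strand for Cnih3. Cnih2 and Cnih3 shared 33 of the 48 bases and 12 of the 16 encoded residues. Over the whole protein they were 81.3% identical.

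All 10 auxiliary subunit genes were detected, by a level of 1 TPM or more in both libraries. Of 22015 nuclear protein-coding genes, 59.1% passed the same limit. TPM is transcript abundance, corrected for length and scaled to a fixed total, so levels of different genes are set side by side on that scale, from the deposited table estimated from alignments. The levels ran from Cnih2, above 99.5% of the coding genes, to Gsg1l, above 56.7% of them.

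Cnih2 was the highest of the 10 genes, with 343 TPM in replicate 1 and 401 TPM in replicate 2 (372 ± 41.0, SD, n = 2 libraries, as for each level, share or ratio of levels given with ± here). It held 52.9% and 55.4% of the summed TPM of the 10 genes. Its relative Cnih3 had 21.1 and 27.5 TPM. The level of Cnih2 over that of Cnih3 was 3.94 ± 0.11 on the log2 scale with a pseudocount of 0.1 TPM, or 15.3-fold. Set against the relatives outside the 10 genes, Cnih2 was 11.7-fold above Cnih1, which had 28.7 and 34.6 TPM, and Cnih4 had 10.1 and 11.0 TPM.

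Cacng8, the TARP known for its abundance in hippocampus, came next with 129 and 149 TPM (139 ± 14.2). It was 2.77-fold above Cacng7 (log2 1.47 ± 0.23) and 8.37-fold above Cacng2 (log2 3.06 ± 0.08). Cacng2 encodes stargazin, the founding TARP, whose loss gives the stargazer mouse its ataxia and seizures. It had 15.9 and 17.0 TPM, beside 17.5 and 18.0 TPM for Cacng3. Cacng4, a type I TARP known for high levels early in development, had 32.0 and 28.1 TPM and was the higher of the pair with Cacng2 (log2 of Cacng2 over Cacng4, -0.86 ± 0.20) and with Cacng3 (log2 of Cacng3 over Cacng4, -0.75 ± 0.16). The type I order by gene TPM in both libraries was therefore Cacng8, Cacng4, Cacng3 and Cacng2. Cacng3 lay above Cacng2 only with its incomplete coding models included, as given below.

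The type II TARPs differed from each other by more than the libraries did. Cacng7 had 52.0 and 48.0 TPM, and Cacng5 had 9.23 and 9.77 TPM, a log2 difference of 2.38 ± 0.14 or 5.21-fold. Type I genes made up 76.0% and 78.6% of the summed TARP TPM (77.3% ± 1.80). Most of that was Cacng8.

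Shisa9, known for its action at dentate gyrus synapses, had 20.9 and 20.3 TPM. It was lower than its relatives Shisa6, with 83.1 and 75.5 TPM, and Shisa7, with 50.6 and 48.9 TPM, by log2 values of -1.94 ± 0.07 and -1.27 ± 0.004. With coding transcripts alone these were -2.76 ± 0.08 and -1.86 ± 0.21. Gsg1l, a relative of the TARPs and claudins that lowers receptor currents, was the lowest of the 10 genes with 8.21 and 5.62 TPM. Shisa9 exceeded it by 1.59 ± 0.35 on the log2 scale, the pair with the widest spread between the libraries in the levels estimated from alignments. With coding transcripts alone that difference was 0.66 ± 0.26.

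**Figure D1:**
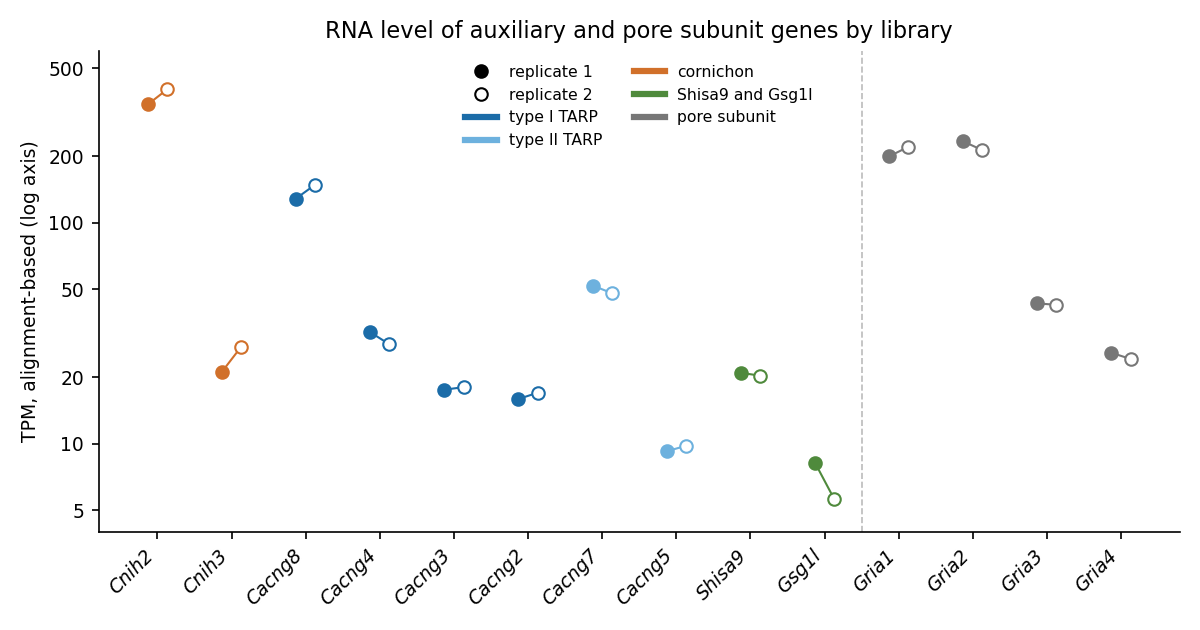
TPM of the 10 auxiliary and 4 pore subunit genes (log axis), with replicate 1 as filled and replicate 2 as open circles, coloured by family. Cnih2 and Cacng8 stand above the other auxiliary genes in both libraries, and Gsg1l is lowest.

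For 12 gene pairs set for comparison, all 12 ratios pointed the same way in replicate 1 as in replicate 2, and the mean was over 2 SD. Even Cacng2 over Cacng3, at 0.926-fold, passed this rule. How often other gene pairs pass it was not computed, and the members were chosen with earlier results of these data known. The count of 12 therefore describes these pairs only. With 2 libraries a sign-flip test cannot give a two-sided p below 0.5, so no p is given. In order of mean TPM, each of the 10 genes was apart from its neighbours, since their ranges over the libraries did not overlap. The order was Cnih2, Cacng8, Cacng7, Cacng4, Cnih3, Shisa9, Cacng3, Cacng2, Cacng5 and Gsg1l. Each range rests on 2 values, and the separation depended on the scale. With coding transcripts alone the ranges of Cacng4 and Cnih3 overlapped. In expected counts, with no correction for length, the order changed and 4 neighbours overlapped while 5 were apart. The second deposited table was estimated from the reads and an index, and is called read-based here. In it Cacng4, Cnih3 and Shisa9 were not apart, with ranges of 38.4 to 42.5, 34.5 to 44.0 and 36.2 to 40.0 TPM, while the other 7 neighbours were. Cacng2 over Cacng3 no longer passed there, at -0.10 ± 0.12 against -0.11 ± 0.04 in the alignment-based table. Shisa9 over Shisa7 was -1.10 ± 0.32 in the read-based table, the widest spread of the 12 pairs there, against -1.27 ± 0.004 by alignment.

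Levels in the read-based table were higher for all 10 genes, 1.35 times to 1.85 times those of the alignment-based table. The same ratio had a median of 1.57 over 13244 coding genes, with quartiles of 1.46 and 1.78. Cacng4 had the lowest ratio of the 10 genes and Shisa9 the highest.

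Summed over the family, the 10 auxiliary genes had 648 and 724 TPM, beside 502 and 499.8 TPM for the 4 pore subunit genes. The ratio of auxiliary to pore TPM was 1.29 and 1.45 (1.37 ± 0.11). TARPs gave 255 and 269.7 TPM, cornichons 364 and 428 TPM, and Shisa9 with Gsg1l 29.1 and 25.9 TPM. Without Cnih2 the ratio was 0.628 ± 0.027, so 1 gene decided on which side of 1 it fell. With Shisa6 and Shisa7, which also bind the receptor, added, it was 1.63 ± 0.10. With coding transcripts alone it was 1.61 ± 0.10, and in expected counts with no correction for length it was 0.472 ± 0.023. Among the pore genes, Gria1 had 199 and 220.3 TPM, Gria2 233 and 213 TPM, Gria3 43.1 and 42.5 TPM, and Gria4 25.8 and 24.2 TPM. In bulk tissue, fewer cells of a type and less RNA per cell cannot be told apart, and these sums do not say which subunits meet in 1 cell.

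**Figure D2:**
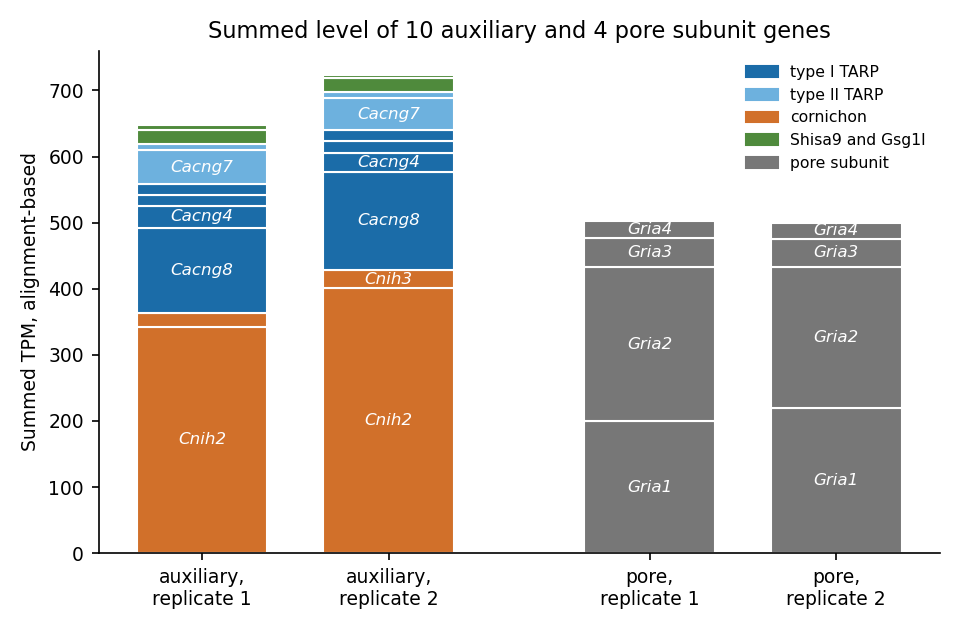
Summed TPM of the 10 auxiliary genes and the 4 pore genes in replicate 1 and replicate 2, stacked by gene and coloured by family. Cnih2 makes up 52.9% and 55.4% of the auxiliary bars, which reach 648 and 724 TPM beside pore bars of 502 and 499.8 TPM.

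Between the libraries 5 of the 10 auxiliary subunit genes passed the test by adjusted p alone, as did 27.1% of all genes tested. Smaller differences pass this test at higher counts. The 10 genes had 487 or more counts in each library, whereas genes with a summed count of only 10 were also tested. The share among genes of like counts was not computed, so these shares do not show an excess among the 10. Of the 5, 4 were higher in replicate 2, and none of the 10 differed 2-fold. Each gene was tested in replicate 1 against replicate 2 by an exact two-sided binomial test on expected counts scaled by TMM, with Benjamini-Hochberg adjustment over 20544 genes. This compares 2 libraries, not conditions, and has no replicate check. None of the 10 genes was called, which needed an adjusted p of 0.05 or less and a 2-fold difference, and 2.83% of all genes tested were. At an unadjusted p under 0.05 there were 6 of the 10 and 35.8% of all genes tested. DESeq2 size factors, spike-in scaling and the read-based counts also called 0 of the 10. Of all genes tested they called 586 of 20544, 1276 of 20544 and 694 of 23044. By adjusted p alone, 1 of the 10 was higher in replicate 1 (11.5% of all genes tested) and 4 were higher in replicate 2 (15.7% of all genes tested). The median log2 ratio of replicate 1 over replicate 2 was -0.14 for the 10 genes and 0.01 for all genes tested.

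The 4 genes higher in replicate 2 included the 2 with the highest levels. Cnih2 had 8799 expected counts in replicate 1 and 11289 in replicate 2, a log2 ratio of -0.33 ± 0.02 (counting SE, adjusted p = 4.36e-55 in the exact binomial test). Cacng8 had 3900 and 5024 counts, also -0.33 ± 0.03 (counting SE, adjusted p = 1.69e-25, exact binomial test). On TMM-scaled counts Cnih2 was therefore 1.25 times and Cacng8 1.26 times higher in replicate 2. Their TPM differed less, at 343 and 401 for Cnih2 and 129 and 149 for Cacng8. Their ratio to each other in TPM was nearly equal in the libraries, with log2 values of Cacng8 over Cnih2 of -1.41 in replicate 1 and -1.43 in replicate 2. Cnih3 had 1017 and 1349 counts (log2 -0.37 ± 0.06, counting SE, adjusted p = 6.69e-09, exact binomial test). Cacng2 had 1780 and 2084 counts, a smaller difference of -0.19 ± 0.05 (counting SE, adjusted p = 0.000258, exact binomial test).

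Gsg1l went the other way. It had 649 counts in replicate 1 and 487 in replicate 2, a log2 ratio of 0.45 ± 0.09 or 1.36-fold (counting SE, adjusted p = 2.44e-06, exact binomial test). Among 12071 coding genes with 200 or more counts, 4.10% had a larger ratio in size than Gsg1l, 7.17% than Cnih3, 10.3% than Cacng8 and 10.8% than Cnih2. The SD of the log2 ratio over those genes was 0.23, and 98.3% of them lay within 1.5-fold. The other 5 genes did not pass the test, with log2 ratios of -0.10 for Cacng3, 0.08 for Cacng4, -0.18 for Cacng5, -0.04 for Cacng7 and 0.03 for Shisa9.

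**Figure D3:**
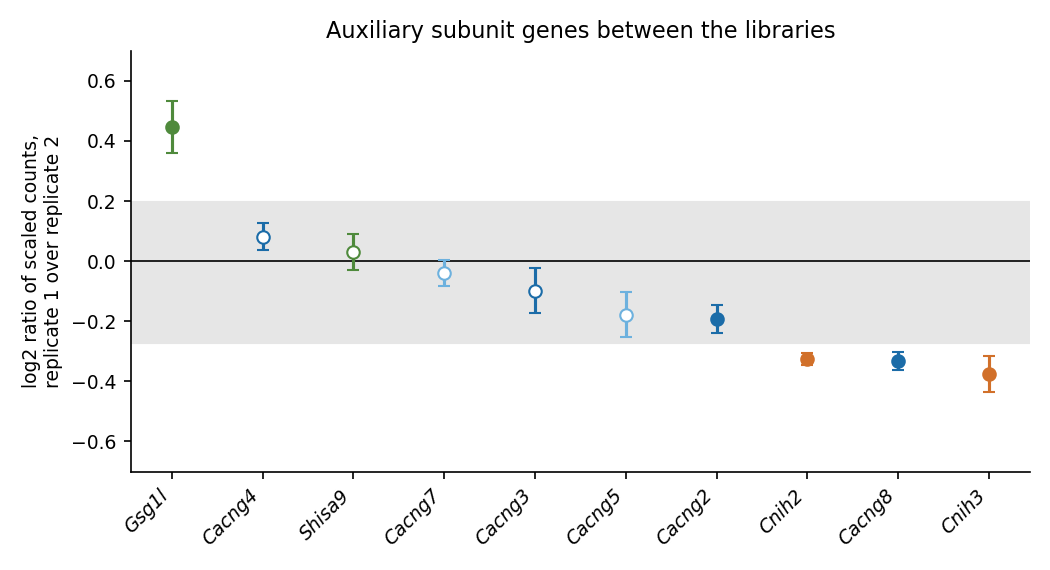
Log2 ratio of TMM-scaled counts, replicate 1 over replicate 2, for the 10 auxiliary subunit genes, with the counting SE as bars. Filled circles passed an adjusted p of 0.05 and the grey band is the median ± 1 SD of 12071 coding genes; Gsg1l lies above the band and Cnih2, Cacng8 and Cnih3 below it.

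The directions depend on the scaling. When counts were scaled to the spike-ins, the median log2 ratio of coding genes was 0.25, against -0.04 with TMM. Cnih2, Cacng8 and Cnih3 were then at -0.04, -0.05 and -0.09 and did not pass (adjusted p of 0.0664, 0.179 and 0.196 in the exact binomial test). Cacng2 turned to 0.09 and no longer passed. Cacng3, Cacng5 and Cacng7 also changed sign, to 0.18, 0.10 and 0.24, and Gsg1l stayed higher in replicate 1. Cacng4 was at 0.36 and Shisa9 at 0.31. With this scaling Gsg1l, Cacng4, Shisa9, Cacng7 and Cacng3 passed as higher in replicate 1. Of all 20544 genes tested, 11154 passed with it in either direction.

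The libraries also differed in marker genes of regions and cell types, tested on TMM-scaled counts. Their values under spike-in scaling are not given here, so the directions apply to TMM scaling. Of all genes tested, 15.7% passed as higher in replicate 2 and 11.5% as higher in replicate 1, and 2.83% were called. These shares include genes with few counts, and shares at like counts were not computed. Markers of CA3 neurons, 5 genes, summed to 165 and 207 TPM, and 3 of the 5 passed as higher in replicate 2. Nptx1 had 63.9 and 93.5 TPM and Bok 27.7 and 39.6 TPM. Grik4 had 22.3 and 23.7 TPM, and Cpne4 was not higher in replicate 2 by TPM, at 48.95 and 47.61. Dentate granule cell markers, led by Prox1 and Calb1, summed to 95.1 and 117.5 TPM, with all 5 passing as higher in replicate 2. The 5 CA1 markers summed to 263 and 266 TPM, and 1 of them passed as higher in replicate 1 and 2 in replicate 2. Mbp (80.5 and 253 TPM), Cnp (40.6 and 79.9 TPM) and Mag (13.5 and 43.9 TPM) were among the myelinating oligodendrocyte markers called as higher in replicate 2. Others of that list are not reported here. Markers of neocortex and subiculum, 6 genes, summed to 172 and 107 TPM, and 3 of the 6 passed as higher in replicate 1. Of these, Tshz2 (28.4 and 6.79 TPM) and Nts (25.4 and 9.60 TPM) were called. The others of the 6 did not pass, and 1 had a log2 ratio below 0. Of the 4 cerebellar markers none reached 1 TPM, with sums of 0.73 and 0.49 TPM. Marker sums of the remaining lists were 1263 and 1488 TPM for glutamatergic forebrain neurons, 358 and 396 TPM for interneurons, and 1095 and 1226 TPM for astrocytes. Oligodendrocyte precursor markers summed to 186 and 195 TPM, microglial ones to 79.3 and 95.4 TPM, thalamic ones to 114.5 and 95.6 TPM, and striatal ones to 17.1 and 18.1 TPM. In these lists only the interneuron marker Pvalb was called, at 3.00 and 7.54 TPM. The part of these shifts in the differences of Cnih2, Cacng8, Cnih3, Cacng2 and Gsg1l was not tested.

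Other genes of the AMPA receptor pathway were tested in the same way, and their values under spike-in scaling are not given here either. Of all genes tested, 15.7% passed as higher in replicate 2 and 11.5% as higher in replicate 1. Here too the share at like counts was not computed, so the counts below do not show an excess. Of 6 genes of receptor assembly in the endoplasmic reticulum, 5 passed as higher in replicate 2, among them Frrs1l (48.7 and 51.5 TPM), an assembly factor for AMPA receptors, and Abhd12 (75.7 and 84.6 TPM). The median log2 ratio of the 6 was -0.21. Of 10 secreted or surface partners, 6 passed as higher in replicate 2 and 2 as higher in replicate 1. Nptx1, also on the list of CA3 markers, is among the 6. Nptxr, a neuronal pentraxin receptor, had 284 and 373 TPM, and Olfm1, a secreted olfactomedin, had 397 and 462 TPM. Of 11 anchoring and trafficking genes, 5 passed as higher in replicate 2 and 1 as higher in replicate 1, led by the scaffold gene Dlg4 at 309 and 322 TPM. None of the genes of these 3 lists was called. Camk2a, a kinase that phosphorylates AMPA receptors and TARPs, had 617 and 781 TPM and passed as higher in replicate 2 (log2 -0.48), as did Camk2b (log2 -0.25). Its relatives Camk2d (log2 0.13) and Camk2g (log2 0.09), named here after their values were seen, passed as higher in replicate 1. Of the 4 pore genes, Gria1 (log2 -0.25) and Gria3 (-0.14) passed as higher in replicate 2 on TMM-scaled counts, while the TPM of Gria3 was slightly higher in replicate 1. Among 5 other auxiliary or associated proteins, Prrt1 at 101 and 93.7 TPM was the highest, Syndig1 had 21.1 and 20.9 TPM, and Shisa7 alone passed (log2 -0.09).

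The genes of the family were annotated with 26 transcripts, 19 of them coding. Cacng2 and Gsg1l had 1 transcript each. In 6 of the 10 genes all transcripts were coding, and the exceptions were Cacng4, Cacng7, Cnih2 and Shisa9.

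In Shisa9 the annotated coding transcripts held 52.3% of the gene's TPM, with 54.8% in replicate 1 and 49.9% in replicate 2. The processed transcript Shisa9-204, which carries no annotated coding sequence, had 9.17 and 9.71 TPM, beside 9.67 and 8.39 TPM for the coding transcript Shisa9-201. With coding transcripts alone Shisa9 had 11.5 and 10.1 TPM, and fell below Cacng3 and Cacng2 in the order. The read-based table gave a coding share of 43.0%. In Cacng7 the coding share was 91.6% in the alignment-based table and 67.3% in the read-based one. The remainder was the retained-intron transcript Cacng7-202, at 5.74 and 2.74 TPM by alignment and 30.9 and 27.1 TPM by reads. Its level therefore differed more between the tables than between the libraries.

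Some isoforms changed the coding sequence. Cnih3-202 extends exon 3 of Cnih3-201, 48 coding bases long, to 105 bases and so adds 19 codons in frame. Shisa9-202 holds a coding exon of 48 bases, 16 codons in frame, that Shisa9-201 skips. The added bases are in capitals here, each with 12 flanking coding bases on either side.
Cnih3-202: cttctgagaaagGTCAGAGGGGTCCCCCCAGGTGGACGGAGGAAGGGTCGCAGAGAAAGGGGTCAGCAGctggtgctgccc
Shisa9-202: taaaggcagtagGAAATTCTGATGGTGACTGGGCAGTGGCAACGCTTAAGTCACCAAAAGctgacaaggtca
They lie at chr1:181409677-181409733 and chr16:12252785-12252832 of mm10, both on the plus strand. Cnih3-202 had 2.76 TPM in replicate 1 and 7.89 TPM in replicate 2, whereas Cnih3-201 had 16.8 TPM in both. The read-based table gave 9.58 and 17.4 TPM for Cnih3-202 and 21.2 and 21.4 TPM for Cnih3-201. In both tables the higher level of Cnih3 in replicate 2 lay mainly in Cnih3-202, a difference between 2 libraries that was not tested by transcript. Shisa9-202 had 1.79 and 1.73 TPM, or 8.54% of the gene by alignment and 11.5% by reads.

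In Cacng3, Cacng3-203, which skips exon 3 of 141 bases, had 4.54 and 7.19 TPM. Cacng3-202, which skips exon 2 of 84 bases, had 2.19 TPM in replicate 1 and was listed at 0 in replicate 2. Both are incomplete coding models, and Cacng3-201 held 60.9% of the gene. Alone, Cacng3-201 had 10.8 TPM in each library, below Cacng2 at 15.9 and 17.0 TPM.

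In Cacng8 and Cacng5 the leading transcripts shared their coding exons and differed outside them. Cacng8-201 and Cacng8-202 took 51.4% and 44.7% of the gene's TPM by alignment, whereas by reads Cacng8-202 took 91.1% in replicate 1 and 88.9% in replicate 2. Cacng5-201 took 84.5% in replicate 1 and 59.0% in replicate 2 by alignment, but 88.8% and 88.9% by reads. Shares of transcripts with the same coding sequence thus moved with the method of estimation, while the summed levels of both genes kept their ranks.

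**Figure D4:**
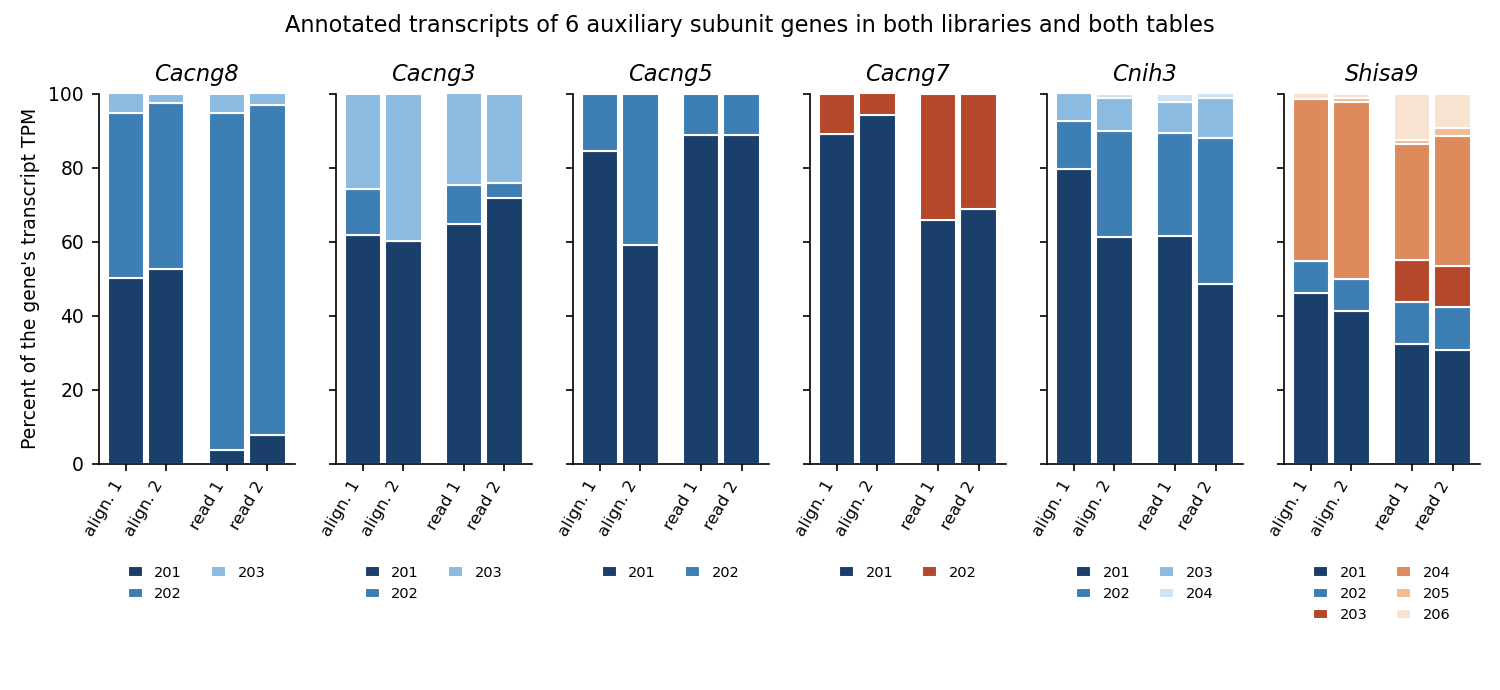
Percent of each gene's transcript TPM held by each annotated transcript, for 6 auxiliary subunit genes, in the alignment-based (align.) and read-based (read) tables of replicates 1 and 2. Blue marks coding and orange non-coding transcripts; the share of Cacng8-202 is 44.7% by alignment and 91.1% and 88.9% by reads, and that of Cacng7-202 is larger by reads.

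Of the 6 TARP genes, 4 lie in 2 clusters with a muscle relative at the end. On chromosome 7, Cacng7 is followed by Cacng8 and Cacng6 within 103 kb. On chromosome 11, Cacng5 is followed by Cacng4 and Cacng1, the subunit of the muscle calcium channel, within 212 kb. No other coding gene was annotated between the genes of either cluster.

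Both clusters had the same order of levels by class. In each, the type I gene was highest of the Cacng genes, with Cacng8 at 139 ± 14.2 TPM beside Cacng7 at 49.98 ± 2.79 TPM, and Cacng4 at 30.05 ± 2.71 TPM beside Cacng5 at 9.50 ± 0.38 TPM. The end gene was near 0 in both, with 0.51 and 0.61 TPM for Cacng6 and 0.08 TPM in each library for Cacng1.

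**Figure D5:**
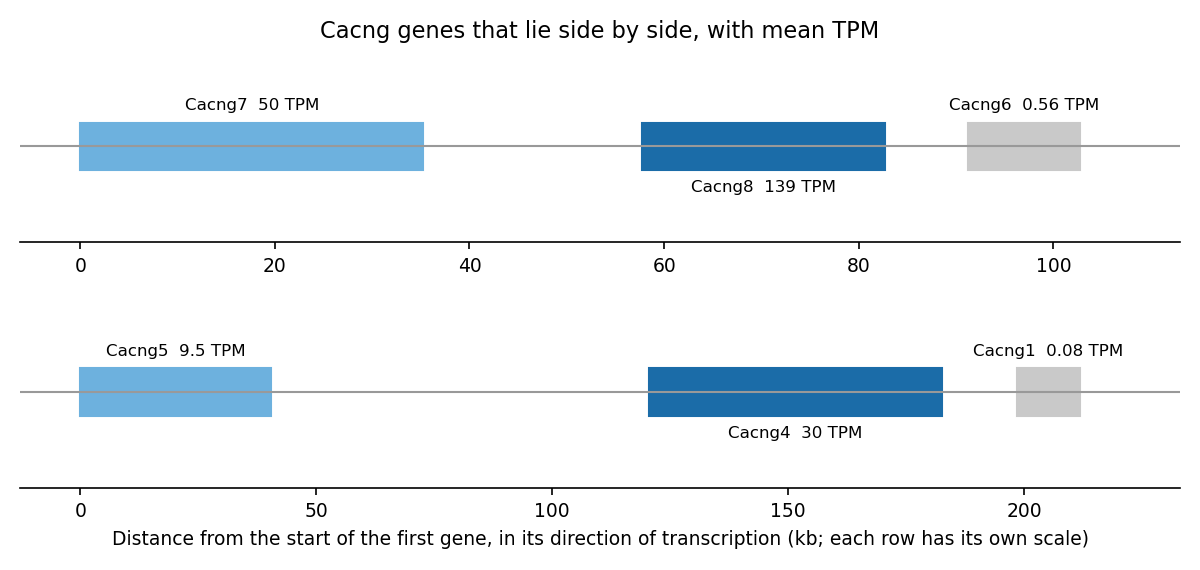
Positions of Cacng genes in 2 clusters, in kb from the start of the first gene along its direction of transcription, with each gene's mean TPM. Type I TARP genes are dark blue, type II light blue and relatives that are not AMPA receptor subunits light grey; the relatives Cacng6 and Cacng1 lie at the far end with under 1 TPM.

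Of the 10 genes, 8 overlapped another annotated gene, and none of the sources used here says whether reads were counted by strand, so their values are uncertain to that extent. Cacng2 overlapped the antisense gene A730060N03Rik, which had 2.82 and 2.85 TPM, over 323 bases of its locus. Cnih2 overlapped the end of Yif1a on the opposite strand by 14 bases, and Yif1a had 10.8 TPM in both libraries. Cacng8 overlapped the antisense gene Gm44151, which was listed at 0 in both. Across the 8 genes no overlapping gene exceeded 3.28 TPM apart from Yif1a. Cacng5 and Shisa9 overlapped none.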

How the data were processed

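The deposited gene and transcript tables hold expected counts, per the file headers, which carry no normalization and were rounded for testing. The deposited TPM values, per the file headers, are scaled to a fixed total over every entry, with spike-ins, and the deposited FPKM served in 1 alternative. The deposited bounds of the TPM intervals were not used. The deposited readme gives build mm10 and annotation M21 for all tables. Program names, versions and use of strand count as not given in the sources used here. Depth was 29858328 and 32275110 expected counts in the alignment-based tables, and 31027182 and 33294709 in the read-based ones. Spike-ins held 101800 and 126802 counts. A further 26248 numbered entries, with 3 and 4 counts, were left out.

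Genes were matched by identifier to GENCODE M21, which also gave coordinates and sequences. Proteins were translated from its coding sequences and aligned pairwise with BLOSUM62. The library comparison was a binomial test per gene, exact, conditional and two-sided, with TMM sizes from edgeR 4.0.16 in R 4.3.3. It took genes with a summed count of at least 10, in place of a fit between groups that 1 group of 2 libraries does not allow. The test was checked on simulated data that held counting error only, the error it assumes, so the check does not cover variation between pools of mice. The counting errors of the test cover no other variation, and the p-values compare these libraries only. Alternatives used DESeq2 1.42.0 size factors, spike-in scaling, other filters and pseudocounts, coding transcripts, the read-based table and TPM rescaled to nuclear protein-coding genes. Named genes are the 10 members, the pore subunits, up to the 4 highest genes of each pathway or marker list, genes of those lists called between the libraries, and neighbouring or overlapping genes from the annotation. The members and lists were chosen with earlier results of these data known. Python 3.11.15 with scipy 1.17.1 was used. Some genes of the marker and pathway lists are not reported here.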

Additional observations from a re-analysis of the deposited data

How the results depend on the processing

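No paired analysis was possible because there is 1 group. The ratio of auxiliary to pore TPM, 1.37, was 1.61 with coding transcripts alone and 0.472 in expected counts without length correction. The levels themselves depend on which genes share the fixed total. With TPM rescaled to nuclear protein-coding genes, mean levels rose from 372 to 830 for Cnih2, from 139 to 309 for Cacng8 and from 6.9 to 15.4 for Gsg1l. The share of Cnih2 in the 10 genes was the same on that scale, at 54.1%. The type I share of TARP TPM, 77.3%, was 73.5% in the read-based table, and the share of Cnih2 in the 10 genes was 51.4% there. Spike-in scaling turned the log2 ratios of Cacng2 to 0.089, Cacng3 to 0.18, Cacng5 to 0.10 and Cacng7 to 0.24. Under it 5 genes passed as higher in replicate 1 and 0 as higher in replicate 2. Of all 20544 genes tested under it, 11154 passed in either direction. The cause of these shifts was not tested. Cacng5 passed with DESeq2 size factors (log2 -0.19) and with read-based counts (-0.24), and Cacng7 with read-based counts (-0.11). Detection of all 10 genes, at a TPM of 5 or 0.1 as well, and the count of 0 called genes held in every alternative run. With 1 group of 2 libraries, precision rests on 2 values a gene.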
